A study of Mus musculus with 5 samples.

Results

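The genes described here encode NRF1, the cap n collar transcription factors, their small Maf partners and KEAP1, which holds one of them in check. They were taken by symbol from the gene counts of mouse neural tubes: Nrf1, the activators Nfe2l1, Nfe2l2 and Nfe2l3, the small Maf genes Maff, Mafg and Mafk, the inhibitor Keap1, and the cap n collar repressors Bach1 and Bach2. All 10 were found among 23284 gene symbols, and 9 of them were among the 12703 genes with enough reads to test. The exception was Nfe2l3. RNA-seq of polyadenylated RNA was done on neural tubes dissected from embryos of mice bred as EpoR+/-, and the question was how loss of the erythropoietin receptor changed gene expression in neural cells that had not been cultured. There were 2 EpoR-null samples (genotype EpoR -/-), 2 wild type samples (EpoR +/+) and 1 heterozygote (EpoR +/-). The last 3 were the controls, described in the study as littermates, so the control group contained 1 sample that carried a deleted allele. The labels gave the age of every sample as embryonic day 8.5, whereas the methods of the study gave a slightly later stage. The deletion was present in every cell of the embryo, blood cells and vessels included. Neither the labels nor the methods say whether a sample held 1 or several embryos, or which of the 5 came from the same litter, so the p-values below measure only the spread between these samples.

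Unrelated proteins carry the name NRF1 in the literature. The gene Nrf1 encodes nuclear respiratory factor 1, which binds GC-rich palindromes in promoters of nuclear genes for the respiratory chain, whereas Nfe2l1 encodes a cap n collar factor that is also called NRF1 and that drives proteasome genes. Cap n collar factors bind DNA as heterodimers with small Maf proteins at antioxidant response elements. NFE2L2 is kept low by KEAP1, an adaptor that hands it to a cullin 3 ubiquitin ligase, and BACH1 and BACH2 occupy the same elements with the same small Maf partners as repressors. Small Maf proteins have no activation domain of their own, so their dimers with each other repress.

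Antioxidant response elements were searched for in the promoters of the 10 genes because this is the site that the proteins they encode bind. The letters TGACNNNGC were looked for on both strands, read as GCNNNGTCA on the opposite one, in RefSeq promoters (GRCm38.p6) reaching from 250 bases before a transcription start to 50 bases after it. A match in any promoter was present in Nfe2l2 and in each of the 3 small Maf genes. Of all 32851 promoters 12.4% held one, and of the 9912 tested genes with a promoter 16.9% had one in any promoter. The 4 windows are shown 5′ to 3′ on the strand of their gene, with the match in capitals and its first base counted from the start site. The windows lie at chr2:75704886-75704912 for Nfe2l2 (minus strand, match at -240), at chr15:79346500-79346526 for Maff (plus strand, -112), at chr11:120633752-120633778 for Mafg (minus strand, -222) and at chr5:139791514-139791540 for Mafk (plus strand, -13).
Nfe2l2: cagcccaccTGACTCCGCcatgccccg
Maff: ggcgtctcaTGACTCTGCcactggaaa
Mafg: tctgcaggaGCACGGTCAacccggcga
Mafk: atcccggaaGCGGTGTCAgtactgggg
Those of Nfe2l2 and Maff read forward along the gene, and those of Mafg and Mafk read as the reverse form. The palindrome made of GCGCA and its reverse complement end to end, the full site of nuclear respiratory factor 1, matched none of the promoters of the 10 genes and 0.971% of all promoters. A match describes the letters only, and binding was not measured in these samples.

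Reads counted on genes numbered 19316126 to 41169218 per sample, so that 3 reads corresponded to a CPM of between 0.0729 and 0.155 (CPM is the read count of a gene scaled to the size of its library). Epor, the deleted gene, had 57 and 68 reads in the wild type samples, 11 in the heterozygote, and just 7 and 19 in both EpoR-null samples. The heterozygote, which was also the lowest in erythroid markers, thus lay with the EpoR-null samples, and the log2 fold change of -1.51 ± 0.76 (SE) did not pass the test (FDR 0.280, exact test of edgeR). Which stretch of Epor the deletion removes was not given in the sources used here. The tissue label was checked against 10 neural progenitor markers, all of which were detected, with a summed level of 2194 to 2467 CPM in the controls and 1838 and 2165 CPM in the EpoR-null samples. Nes, the most abundant of them, encodes nestin and reached 368 to 777 CPM, and Msi1, which encodes an RNA-binding protein of progenitors, fell to 174 and 180 CPM from 239 to 264 CPM (log2 fold change -0.51 ± 0.14, FDR 0.00712). Msi1 was the only marker of the 10 to pass the test, the other 9 did not, and 2 of the 10 had a positive fold change. Both EpoR-null samples differed from the controls in a trend over the whole transcriptome. Relative to the control mean, the class of tested genes with the shortest transcripts, 1 of 5 of equal size, exceeded the class with the longest by 0.45 (log2) in EpoR-null replicate 1 and by 0.97 in replicate 2, against -0.06 to 0.08 in the 3 controls. Values of each gene are therefore also given from a fit with offsets that remove each sample's trend on transcript length and GC content. Fewer cells of a type and less RNA per cell cannot be told apart in RNA from whole tissue.

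Of the 9 genes tested, Mafg fell in the EpoR-null neural tubes, and none of the other 8 passed the test (FDR below 0.05). Of all 12703 genes tested, 7.31% passed, 5.49% as lower and 1.81% as higher in EpoR-null, and 4.77% also had a p below 0.001, as did Mafg. Both EpoR-null samples lay below all 3 controls for Nfe2l1, Mafg and Bach1, and above all 3 for Maff. Over all tested genes, 22.1% separated in this way as lower and 21.2% as higher, and so 4 of 9 is close to the 43.3% found across the transcriptome. The fold changes of the 9 genes ran from -0.89 (Mafg) to 0.44 (Maff) on the log2 scale with Mafk, at -0.22, in the middle. The median over all tested genes was 0.06.

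**Figure D1:**
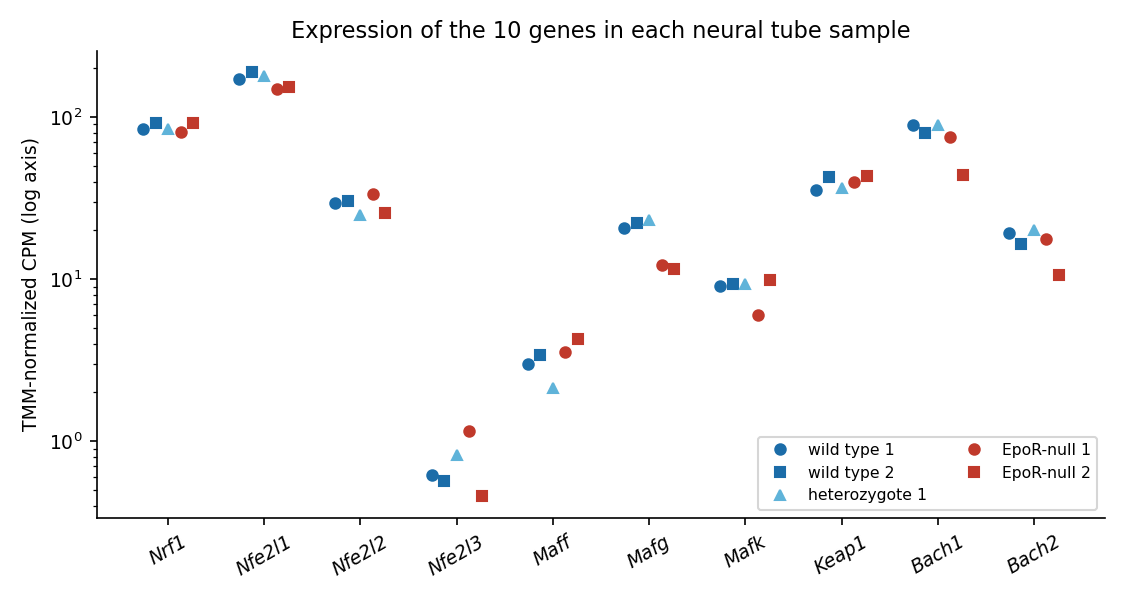
Expression of the 10 genes in each neural tube sample, as CPM after TMM normalization on a log axis, with wild type samples in dark blue, the heterozygote in light blue and EpoR-null samples in red. The 2 EpoR-null points of Mafg, at 12.3 and 11.5 CPM, sit below its 3 control points at 20.6 to 23.0 CPM, while the points of Nrf1 and Keap1 are mixed.

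The small Maf genes are the partners that every cap n collar factor needs to bind DNA, and the 3 of them did not share a pattern. Mafg was at 20.6 and 22.3 CPM in the wild type samples, 23.0 CPM in the heterozygote, and 12.3 and 11.5 CPM in the EpoR-null samples. These values came from 499, 937 and 533 reads in the controls and 243 and 326 reads in the EpoR-null samples. The groups did not overlap, and the gap between them exceeded the spread within either group: the controls averaged 21.97 ± 1.24 CPM (SD, n = 3), and the EpoR-null mean of 11.9 ± 0.56 CPM (SD, n = 2) was 46.0% lower. The log2 fold change was -0.89 ± 0.22 (SE, p = 6.37e-05, FDR 0.00280, exact test of edgeR). It was -0.81 with the length and GC offsets (FDR 0.0380, likelihood-ratio test of edgeR) and -0.84 to -0.94 when any 1 sample was left out. Mafg no longer passed without wild type replicate 1 (FDR 0.157), without wild type replicate 2 (FDR 0.0988) or without the heterozygote (FDR 0.0623). It also missed the threshold in the quasi-likelihood test of edgeR, at FDR 0.0590. That test called no gene, and its lowest FDR was this same value. The adjustment gave it to many genes alike, so it does not show where Mafg ranked. With replicate number and the offsets added to the quasi-likelihood test, the FDR of Mafg was 0.234.

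Maff, whose product is induced by stress and cytokines in many cells, was the rarest of the small Maf genes. It was at 3.01 and 3.43 CPM in the wild type samples, 2.12 CPM in the heterozygote, and 3.53 and 4.26 CPM in the EpoR-null samples. The EpoR-null samples were above the controls, but wild type replicate 2 lay just under the lower of them, and the log2 fold change of 0.44 ± 0.39 (SE) did not pass the test (FDR 0.570). With the offsets it was 0.13. Mafk was nearly the same in the 3 controls, at 9.08, 9.35 and 9.33 CPM, whereas the EpoR-null samples stood apart from each other at 6.0 and 9.81 CPM. They fell on either side of the controls, and the log2 fold change was -0.22 ± 0.33 (FDR 0.773). It was -0.63 without EpoR-null replicate 2 and 0.08 without EpoR-null replicate 1, so the EpoR-null sample that was kept set its sign.

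Added together, the small Maf genes gave 32.7, 35.1 and 34.5 CPM in the controls and 21.8 and 25.5 CPM in the EpoR-null samples. Per kilobase of the longest transcript, which allows genes to be compared, the sums were 8.65 to 9.30 CPM per kb in the controls and 6.23 and 7.67 CPM per kb in EpoR-null. The groups did not overlap on either scale, and no test was run on a sum that includes Mafg, which had already passed the exact test. Mafg made up 48.3%, 48.7% and 53.3% of the per-kilobase sum in the controls, and 40.0% and 30.4% in the EpoR-null samples. By CPM Mafg was the most abundant small Maf gene in every sample. Per kilobase, Mafk (3.17) exceeded Mafg (2.33) in EpoR-null replicate 2. The ratio of Nfe2l1 CPM to Mafg CPM was 8.36, 8.504 and 7.73 in the controls and 12.1 and 13.4 in EpoR-null. This ratio too includes Mafg, and no test was run on it.

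Among the cap n collar activators, Nfe2l1 was the most abundant of the 10 genes, and its product regulates proteasome subunit genes when proteasome activity is short. Its level was 172 and 190 CPM in the wild type samples, 178 CPM in the heterozygote, and 148 and 153 CPM in the EpoR-null samples. The groups did not overlap, and EpoR-null was 16.1% lower on average. The log2 fold change was -0.25 ± 0.13 (SE) and did not pass the exact test of edgeR (FDR 0.281). It stayed between -0.21 and -0.29 with any 1 sample left out and was -0.20 with the offsets, and DESeq2 placed it just under the threshold (FDR 0.0498). Both EpoR-null samples were also lower for 22.1% of all tested genes.

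Nfe2l2 encodes the main activator of antioxidant and detoxifying genes. It was at 29.3 and 30.2 CPM in the wild type samples, 24.7 CPM in the heterozygote, and 33.4 and 25.7 CPM in the EpoR-null samples. The EpoR-null samples straddled the wild type values, and the log2 fold change of 0.07 ± 0.22 (SE, FDR 0.901) turned to -0.07 with the offsets. Nfe2l3, the third activator, is close to Nfe2l1 in sequence and was barely present: it had 15, 24 and 19 reads in the controls and 23 and 13 in the EpoR-null samples, equal to 0.457 to 1.16 CPM over all 5. It reached 1 CPM in only EpoR-null replicate 1 and was not tested, and a difference of moderate size would not be detectable at this depth.

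Nrf1, the nuclear respiratory factor, differed between the groups by less than the spread within them. It was at 84.8 and 92.4 CPM in the wild type samples, 84.8 CPM in the heterozygote, and 80.5 and 91.5 CPM in the EpoR-null samples, from at least 1595 reads each. The EpoR-null samples spanned nearly the whole range of the controls, and the mean of the former was 86.0 ± 7.77 CPM (SD, n = 2) next to 87.3 ± 4.38 CPM (SD, n = 3) for the latter. The log2 fold change was -0.02 ± 0.14 (SE, FDR 0.961). Its sign was not stable: it was 0.05 with the offsets and ranged from -0.12 to 0.07 as samples were left out. The standard error of 0.14 makes this one of the better measured of the 9 genes, next to Nfe2l1 at 0.13.

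Keap1, whose product senses electrophiles and targets NFE2L2 for degradation, was at 35.5 and 42.4 CPM in the wild type samples, 36.3 CPM in the heterozygote, and 39.8 and 43.5 CPM in the EpoR-null samples. The groups overlapped, and the log2 fold change of 0.13 ± 0.18 (SE, FDR 0.728) was 0.03 with the offsets.

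For both repressors the EpoR-null samples stood apart from each other, with replicate 2 the lower. Bach1, which in other tissues represses heme oxygenase and is released from DNA by heme, was at 88.9 and 79.6 CPM in the wild type samples, 89.6 CPM in the heterozygote, and 75.2 and 43.6 CPM in the EpoR-null samples. Both EpoR-null samples were lower than the controls, replicate 1 by a few CPM and replicate 2 by far more, and the SD was 22.3 CPM in EpoR-null (n = 2) against 5.59 CPM in controls (n = 3). The log2 fold change was -0.54 ± 0.26 (SE, p = 0.0418, FDR 0.228, exact test of edgeR). It was -0.19 without EpoR-null replicate 2 and -0.98 without EpoR-null replicate 1, where the lone EpoR-null sample is assumed to vary like the controls (FDR 1.57e-10), and -0.29 with the offsets (FDR 0.850).

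Bach2, known for its part in lymphocytes, was at 19.3 and 16.6 CPM in the wild type samples, 20.2 CPM in the heterozygote, and 17.8 and 10.6 CPM in the EpoR-null samples. EpoR-null replicate 1 lay inside the range of the controls and replicate 2 below it, the same order as for Bach1. The log2 fold change of -0.40 ± 0.31 (SE, FDR 0.524) was -0.07 without EpoR-null replicate 2, -0.81 without EpoR-null replicate 1 (FDR 0.0160) and 0.06 with the offsets. Bach1 and Bach2 have the longest transcripts of the 10 genes, at 5867 and 8882 bp, and EpoR-null replicate 2 is the sample with the stronger length trend. The part of that trend in their values was not tested apart from the fit with offsets.

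**Figure D2:**
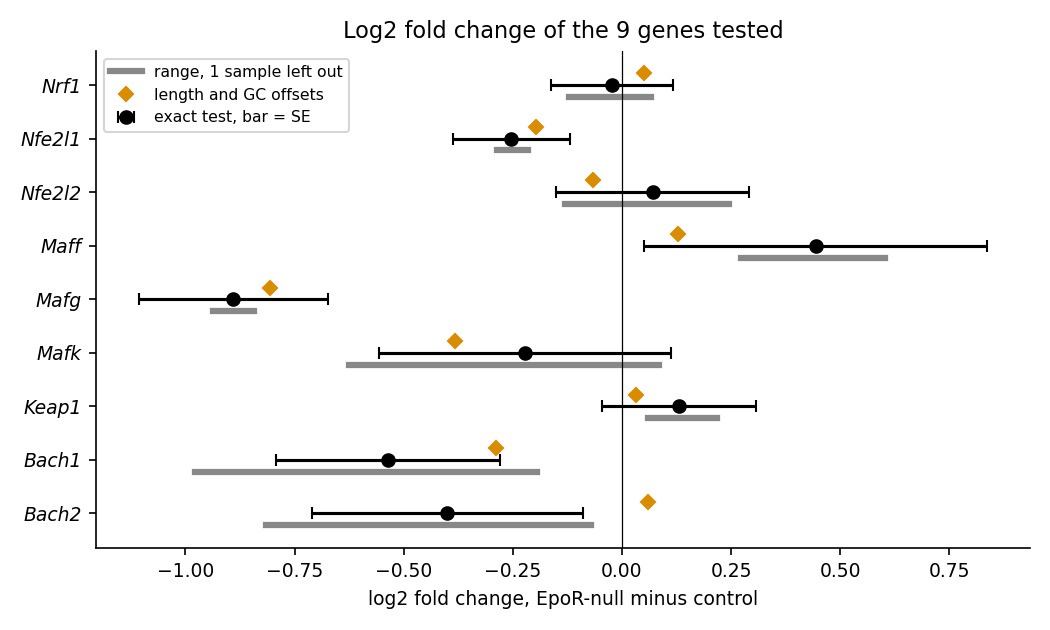
Log2 fold change, EpoR-null minus control, of the 9 genes tested, with black points and bars for the estimate of the exact test and its SE, grey lines for the range when 1 sample is left out, and orange diamonds for the fit with length and GC offsets. Mafg keeps a value between -0.94 and -0.81 in all of these, whereas Mafk, Nrf1 and Nfe2l2 cross 0 and the offsets move Bach2 from -0.40 to 0.06.

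Because fold change followed transcript length, each gene was also read against genes of its own length. Tested genes were split into 5 classes of nearly equal size by the length of their longest annotated transcript, and the median log2 fold change went from 0.37 in class 1 (66 to 2061 bp) through 0.16, 0.04 and -0.11 to -0.36 in class 5 (5430 bp or more). Class 5 held 565 of the 698 genes called lower, and class 1 held 180 of the 230 called higher. Mafg, with 4923 bp, was in class 4, of 4011 to 5427 bp, where only 82 of 2511 genes were called lower. Of those 2511 genes 41, or 1.63%, had a fold change as low as or lower than that of Mafg. Nfe2l1 (4654 bp) and Nrf1 (4042 bp), in the same class, had 27.1% and 61.7% of its genes at or below them. Bach1 and Bach2, in class 5, had 28.9% and 45.1% at or below them, and Maff, in class 1, had 64.7%. Mafk stood at 12.9% and Keap1 at 64.6% of class 3, and Nfe2l2 at 32.9% of class 2. These shares describe where each gene lies and are not tests.

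**Figure D3:**
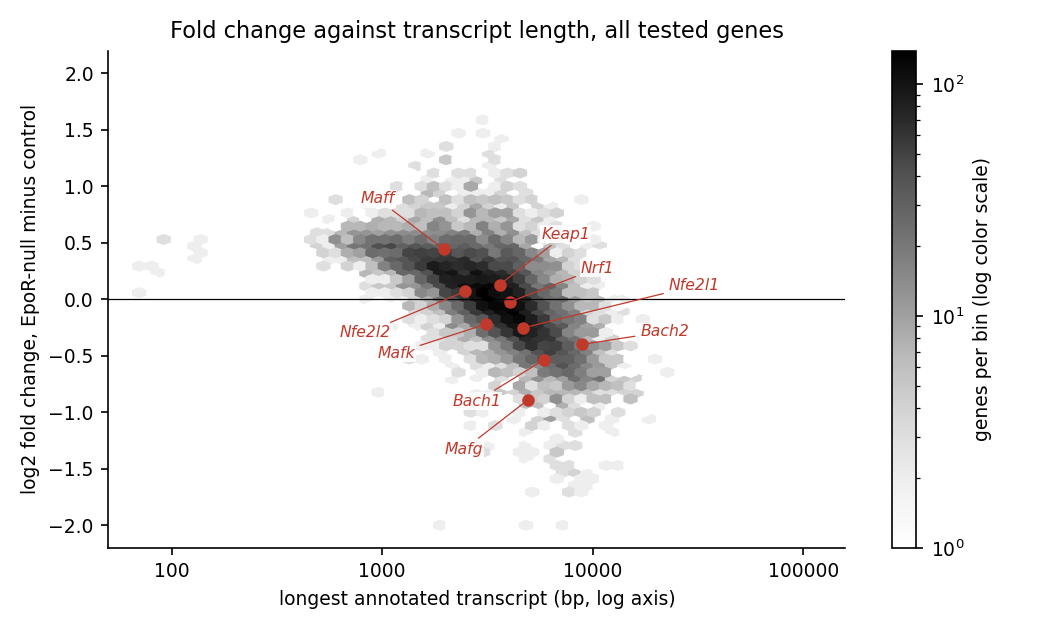
Log2 fold change, EpoR-null minus control, against the length of the longest annotated transcript (log axis) for all tested genes with a length, shaded by the number of genes per bin, with the 9 genes in red and values beyond 2 in size drawn at 2. The cloud slopes downward from a median of 0.37 in the shortest of 5 length classes to -0.36 in the longest, with most of the 9 genes inside it and Mafg at its lower edge.

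Levels were compared between genes per kilobase of the longest annotated transcript. In the controls Nfe2l1 was highest, at 38.7 ± 1.91 CPM per kb (SD, n = 3), followed by Nrf1 at 21.6 ± 1.08, Bach1 at 14.7 ± 0.95, Nfe2l2 at 11.3 ± 1.18 and Keap1 at 10.5 ± 1.04 CPM per kb. The small Maf genes and Bach2 were lower, with Mafg at 4.46 ± 0.25, Mafk at 2.99 ± 0.05, Bach2 at 2.102 ± 0.21 and Maff at 1.46 ± 0.34 CPM per kb, and Nfe2l3 was last at 0.264 ± 0.05 CPM per kb. Only Nfe2l2 and Keap1 were neighbors whose control ranges overlapped. Transcripts of the small Maf genes were therefore fewer than those of Nfe2l1 alone, with 8.65 to 9.30 CPM per kb for the 3 of them against 37.0 to 40.7 for Nfe2l1. Dividing by the union of all annotated exons placed Bach1 (13.9 CPM per kb) above Nrf1 (8.49) and Keap1 above Nfe2l2, and kept the other ranks.

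Several of these genes share exonic sequence with a neighbor in the GENCODE annotation of GRCm38, the only coordinates available here. Mafg (chromosome 11, 120625117 to 120633600, minus strand) shares 124 exonic bases with Sirt7, which lies on the same strand. By default HTSeq gives reads in such an overlap to neither gene, and Sirt7, a nuclear deacetylase gene, had a log2 fold change of 0.26 (FDR 0.559), opposite in sign to Mafg. Mafk (chromosome 5, 139791513 to 139802653, plus strand) shares 169 bases with Tmem184a on the opposite strand, which had at most 2 reads in any sample. Keap1 and Bach2 overlap antisense genes by 510 and 537 exonic bases. The strand setting of the counting was not given in the sources used here, so reads of those antisense genes could be included in Keap1 and Bach2.

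The genes around the 10 were described in 8 lists, starting with partners and regulators. Among other cap n collar and large Maf genes, 3 of 5 were tested and none was called. Nfe2, the erythroid cap n collar gene, was at 1.16, 1.12 and 0.259 CPM in the controls and 2.47 and 1.90 CPM in EpoR-null. The EpoR-null samples were higher than every control, but from 6 to 54 reads per sample, and the log2 fold change of 1.35 ± 0.65 (SE) missed the threshold (FDR 0.203). Nfe2 is also a marker of primitive erythroid cells, whose summed markers were lowest in the same heterozygote sample.

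The KEAP1 ligase and NFE2L2 turnover list had 2 of 11 genes called higher and none lower, with a median of -0.05, where 1.81% of all tested genes were called higher and 5.49% lower. Rbx1, the RING subunit of cullin ligases, rose by 0.43 (log2, FDR 0.0257), and Sqstm1, the autophagy receptor p62 that binds KEAP1, rose by 0.41 (FDR 0.0480). Cul3, the scaffold of the ligase itself, had a value of -0.33 (FDR 0.183). Neither call was made with the offsets, and neither was made without any 1 of the controls.

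The list of NFE2L1 processing genes had 2 of 10 called lower and none higher, with a median of -0.10, where 5.49% of all tested genes were called lower. NFE2L1 is made in the endoplasmic reticulum, pulled out by VCP, stripped of its sugars by NGLY1 and cut by the protease DDI2 before it becomes active. Ddi2 was at 29.1, 29.3 and 26.4 CPM in the controls and 14.6 and 12.5 CPM in EpoR-null. It fell by 1.07 on the log2 scale (SE 0.21, FDR 9.37e-05, exact test of edgeR), an estimate larger in size than that of any of the 9 genes tested. Hcfc1, a chromatin cofactor known to bind and stabilize NFE2L1, fell from 490 to 532 CPM in the controls to 290 and 333 CPM (log2 fold change -0.72 ± 0.15, FDR 0.000184). Ngly1 had a value of 0.23 (FDR 0.725). The transcript of Ddi2 is 9553 bp long, in length class 5, where 565 of 2515 genes were called lower, and with the offsets its value was -0.53 (FDR 0.358) and the list had no call. Removing any 1 sample left 1 to 4 of the list called, with 1 when wild type replicate 1 was removed and 4 when EpoR-null replicate 1 was.

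Of the antioxidant response targets, 25 of 32 were tested, and 4 were called higher and none lower, with a median of 0.39 against 0.06 over all tested genes, of which 1.81% were called higher. The 4 were Fth1 and Ftl1, the heavy and light chains of the iron store ferritin, Txn1, which encodes thioredoxin, and Gstp1, a glutathione S-transferase. Fth1 was at 222, 221 and 198 CPM in the controls and 300 and 348 CPM in EpoR-null (log2 fold change 0.60, FDR 0.00290), and Ftl1 at 798, 852 and 795 CPM against 1134 and 1214 CPM (0.53, FDR 0.00404). Txn1 rose by 0.49 (FDR 0.0347) and Gstp1 by 0.63 (FDR 0.0360). Best known as direct NFE2L2 targets, Nqo1 and Hmox1 had values of 0.20 (FDR 0.859) and 0.31 (FDR 0.557). The 7 genes of heme and iron handling under BACH1 had 2 called higher, which were again the 2 ferritin genes, and a median of 0.52. With the offsets the medians were 0.09 and 0.10 and neither list had a call, and the same was true of the calls when any 1 control was left out.

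All 33 proteasome subunit genes, the targets of NFE2L1, were tested, and 3 were called higher and none lower, with a median of 0.32. Psma6, an alpha ring subunit, rose by 0.48 (FDR 0.0181), Pomp, the assembly chaperone, by 0.47 (FDR 0.0363), and Psmb4, a beta ring subunit, by 0.56 (FDR 0.0429). The share called, 9.09%, compares with 1.81% of all genes called higher, but the transcripts of this list are short, with a median of 1883 bp. With the offsets the median was -0.004 and no gene was called. Leaving out any 1 control removed every call, while leaving out EpoR-null replicate 1 made 27, so these counts depend on which samples enter.

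The coactivators and partners of nuclear respiratory factor 1 had 2 of 8 genes called lower and none higher, with a median of -0.20, where 5.49% of all tested genes were called lower. Gabpb2, which encodes a beta subunit of the factor NRF2/GABP, fell to 83.1 and 71.8 CPM from 129, 123 and 134 CPM (log2 fold change -0.73 ± 0.14, FDR 7.75e-05), and Gabpa, its DNA-binding alpha subunit, fell by 0.40 on the log2 scale (FDR 0.0496). The PGC-1 family coactivators did not pass the test: Ppargc1a had a value of -0.25 ± 0.49 (SE, FDR 0.859), Ppargc1b of -0.14 ± 0.48 (FDR 0.928) and Pprc1 of -0.38 ± 0.28 (FDR 0.489). Ppargc1a had only 22 to 51 reads per sample and Ppargc1b 16 to 60, so a moderate change in either would not be detectable. With the offsets none of the list was called, and leaving out any 1 control left 1 call.

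The list of mitochondrial targets of nuclear respiratory factor 1, mostly nuclear-encoded subunits of cytochrome c oxidase, had 10 of 19 called higher and none lower, with a median of 0.47. Over all tested genes 1.81% were called higher, and 180 of those 230 genes were in the class with the shortest transcripts. Cox6c was at 88.3, 80.9 and 89.0 CPM in the controls and 126 and 144 CPM in EpoR-null (log2 fold change 0.65 ± 0.14, FDR 0.000313). Cox6b1 rose by 0.59 (FDR 0.00102) and Cox7a2 by 0.55 (FDR 0.00533). Tfam, the mitochondrial transcription factor and a textbook target, had a value of 0.09 (FDR 0.796). With the offsets the median was 0.12, and Cox6c was the only gene called (0.58, FDR 0.0155). The offsets use the longest annotated transcript, which is 3038 bp for Cox6c but 618 bp for Cox6b1 and 659 bp for Cox7a2. With them Cox6b1 had a value of 0.09 and Cox7a2 of 0.05. Whether the length used for Cox6c is that of the transcript expressed here was not tested. The list had no call without wild type replicate 1, 1 without wild type replicate 2 and 2 without the heterozygote.

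**Figure D4:**
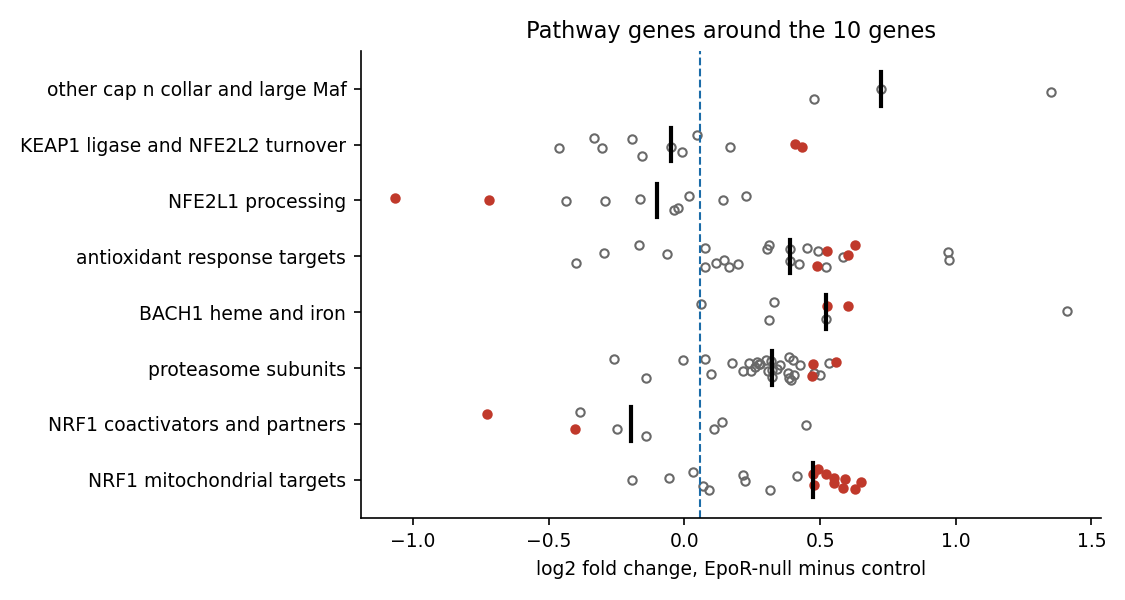
Log2 fold change, EpoR-null minus control, of the tested genes in 8 lists of partners, regulators and targets, with filled red points for genes that passed FDR 0.05, open points for the rest, a black bar for each list's median and a dashed line at the median of all tested genes, 0.06. The target lists lie to the right of the dashed line, with medians of 0.32 to 0.52, and the processing and coactivator lists have medians of -0.10 and -0.20.

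The promoter motifs were set beside the fold changes of all 9912 tested genes with a RefSeq promoter. An antioxidant response element was present in 16.9% of them, in 15.4% of those called lower and in 17.1% of those called higher, and the median log2 fold change was 0.05 with and without it. Among the antioxidant response targets, tested or not, 10 of the 27 genes with a promoter had one, and among the proteasome genes 5 of 27 did. The nuclear respiratory factor 1 palindrome was present in 2.40% of tested genes, in 15 of 534 called lower and in 12 of 187 called higher (2.81% and 6.42%), while the median log2 fold change was 0.03 with it and 0.05 without it. Among the 10 mitochondrial target genes called higher, Cox6a1 was the one that held the palindrome. These shares were not tested.

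Marker genes of other cell types varied widely between samples. The summed primitive erythroid markers, of which 12 of 13 were in the files and Hba-a1 and Hba-a2 were at 0 in every sample, were at 1129 and 628 CPM in the wild type samples, 46.8 CPM in the heterozygote, and 1732 and 984 CPM in EpoR-null. Hbb-y, the embryonic globin with the most reads, went from 15.8 CPM in the heterozygote to 800.3 CPM in EpoR-null replicate 1. The 9 endothelial markers, led by Kdr, followed with 211 and 337 CPM in the wild type samples, 13.8 CPM in the heterozygote, and 295 and 166 CPM in EpoR-null. The heterozygote was thus the lowest in blood and vessel markers. Its values for Nrf1, Nfe2l1, Mafk and Keap1 lay between those of the wild type samples, those for Nfe2l2 and Maff lay below both, and those for Nfe2l3, Mafg, Bach1 and Bach2 lay above both. Neuron markers, led by Tubb3, summed to 351 to 578 CPM in the controls and to 1141 and 265 CPM in the EpoR-null samples, on both sides of the controls. Neural crest markers, led by Ets1, ranged from 84.7 to 244 CPM, paraxial mesoderm markers, led by Meox1, from 10.7 to 118 CPM, and surface ectoderm markers, led by Krt8, from 6.09 to 36.9 CPM over the 5 samples. For neuron markers the lowest sum was that of EpoR-null replicate 2. In the neural crest, paraxial mesoderm and surface ectoderm lists the lowest sum was again that of the heterozygote. Its neural progenitor sum, 2467 CPM, was the highest of the 5 samples. No gene of these 6 other lists was called. None of the summed levels separated EpoR-null from control without overlap, apart from the neural progenitor markers. Their EpoR-null sums of 2165 and 1838 CPM both lay below the lowest control, at 2194 CPM, replicate 1 only narrowly. Of all tested genes, 22.1% separated in this way as lower. The median log2 fold change of the progenitor markers was -0.19, and -0.12 with the offsets. The part of cell composition in the values of the 10 genes was not tested.

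**Figure D5:**
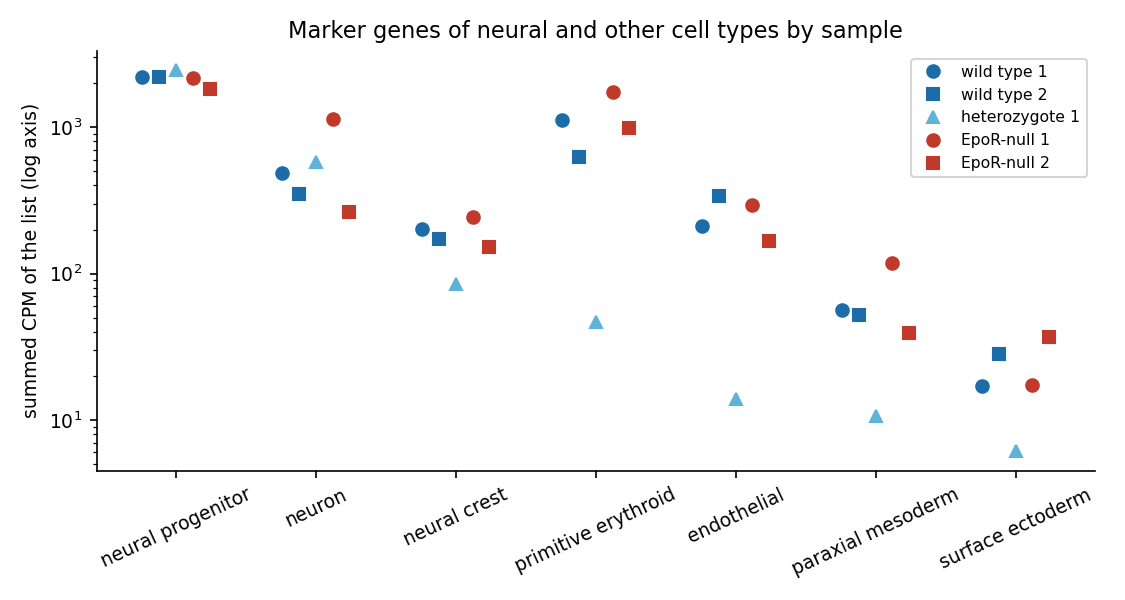
Summed CPM of marker genes of neural progenitors and of 6 other cell types in each sample, on a log axis, with wild type samples in dark blue, the heterozygote in light blue and EpoR-null samples in red. The heterozygote is lowest for the erythroid markers, at 46.8 CPM, and for the endothelial markers, at 13.8 CPM.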

How the data were processed

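Per the submitters' processing notes, reads were trimmed with Trimmomatic 0.32, checked with FastQC, aligned with TopHat2 2.1.0 (build mm9) and counted with HTSeq 0.6.1. The methods of the study name a human build for RNA-seq. The annotation and strand setting were not given in the sources used here. The authors deposited raw read counts per gene, 1 table per sample, without normalization. HTSeq summary lines were left out of library sizes; reads on no gene were 8.12 to 11.0% and ambiguous reads 1.85 to 2.31% of uniquely aligned reads. HTSeq leaves out reads that align to several places or fall on overlapping genes, which undercounts genes with near-identical copies.

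Samples were grouped by their labels. The test covered genes that exceeded 1 CPM in 2 samples or more, EpoR-null against the 3 controls, with the exact test of edgeR 4.0.16 in R 4.3.3 (TMM factors, tagwise dispersions, Benjamini-Hochberg adjustment over 12703 genes, called at FDR 0.05), as in the study's methods, where p below 0.001 was also required (606 genes, 4.77%, Mafg among them). The common biological coefficient of variation was 0.232. Reported CPM values are TMM-normalized. Every ± after a fold change is a standard error from the negative binomial fit.

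Lengths, GC content and positions came from GENCODE M21 (GRCm38), matched for 20882 genes by symbol and 1908 by an older symbol, with 494 unmatched. Offsets were loess trends (span 0.5) of each sample on length and GC. The fits were tested on simulated data. Alternatives were the quasi-likelihood test of edgeR, alone and with replicate number added (replicate block), the likelihood-ratio test with and without offsets, the block with offsets, DESeq2 1.42.0, RLE factors, scaling by library size alone, no low-count filter, a minimum of 10 reads per sample, and each sample left out.

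All 10 genes were named, with Epor. From each list, the called genes were named, or the 3 with the lowest p in each direction where more than 6 were called, together with the marker gene with the most reads and set partners (Nfe2, Cul3, Sqstm1, Ppargc1a, Ppargc1b, Pprc1, Ddi2, Ngly1, Hmox1, Nqo1, Tfam). Hcfc1 and Gabpa came in as called genes. Sirt7, Tmem184a and Cox6a1 were added afterwards for what they share with named genes. The genes, lists and tests were chosen with earlier results of these data known.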

Additional observations from a re-analysis of the deposited data

How the results depend on the processing

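The main limit is the number of samples, 2 EpoR-null and 3 controls, so that 1 sample can decide a count. Against 928 genes called, the quasi-likelihood test called 0 (3052 at an unadjusted p under 0.05), the likelihood-ratio test with offsets 169, the quasi-likelihood test with replicate block and offsets 0 (1272 at an unadjusted p under 0.05), DESeq2 1737, and leaving out 1 sample 115 (without wild type replicate 1) to 3778 (without EpoR-null replicate 1). The calls were 698 lower and 230 higher, but 652 and 104 with no filter, 141 and 28 with offsets, and 1982 and 1796 without EpoR-null replicate 1; the cause was not tested. Of the 10 genes, 1 was called in the main test, 0 in the quasi-likelihood test, 0 with replicate block and offsets, 2 by DESeq2 (Mafg and Nfe2l1), and 0 (without any 1 control) to 3 (Mafg, Bach1 and Bach2, without EpoR-null replicate 1) with 1 sample left out. With the replicate block alone, the quasi-likelihood test called 695 genes, Mafg among them (FDR 0.0452). The replicate numbers are only shared numbers; the differences between replicates 1 and 2 correlated across 12703 genes, which are not independent, between wild type and EpoR-null (r = 0.43, rho = 0.53). Fold changes that turned sign were those of Nrf1 (0.0502 with offsets, -0.12 to 0.0655 with 1 sample left out), Nfe2l2 (-0.0668 with offsets, -0.0609 with block and offsets, -0.13 to 0.25 left out), Mafk (-0.63 to 0.0847 left out) and Bach2 (0.0597 with offsets, 0.0872 with block and offsets). Over all alternatives, 117 of the fold changes kept their direction and side of the threshold and 10 turned sign. Most of the 117 belonged to genes called in neither fit. Another 5 kept their direction but lost the call, and 3 gained one. All 5 losses were those of Mafg, the only gene of the 10 called in the main test.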
